A study of Rattus norvegicus with 20 samples.

Results

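Astrocyte genes were followed in the RNA of laser-captured cortical neurons. The 9 genes are Gfap, Aqp4, Aldoc, Slc1a2, Slc1a3, Gja1, Gjb6, S100b and Glul, taken as every array probe whose gene name or described gene is one of these symbols. This gave 14 of the 41012 probes on the array, and all 14 passed the filters on brightness and missing values. Slc1a2, Slc1a3 and Gja1 had 2 probes each, Glul had 3, and the other genes 1 each. A further probe has the full name of the Gfap protein in its description but a transcript identifier in place of a symbol. It is reported beside Gfap and is not counted among the 14. The brightest probe stands for its gene below, among 33091 genes tested.

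The neurons came from cortex of rats aged 2 months that had a stroke, so every group carries the stroke, and no unlesioned group is analysed here. Cholera toxin B, a tracer taken up by axons, was injected beside the infarct in one colour and again at the same site in a second colour 21 days or 7 days later, in separate cohorts. Neurons were laser-captured 7 days after the second tracer, about 300 of each type, and the labels call them sprouting or non-sprouting. The 4 groups are sprouting and non-sprouting neurons of day 21, and sprouting and non-sprouting neurons of day 7, from 5 animals per day. RNA of both types of an animal went through 2 rounds of T7 amplification and was hybridised together on 2 arrays with the dyes swapped, which makes 20 arrays and 40 channels. Each ratio is the log2 value of sprouting over non-sprouting neurons within 1 animal, as the mean of both arrays. Levels are log2 channel signals after normalization between arrays. They can be compared between animals for a probe, but not between probes. Fewer astrocyte fragments in a sample and less astrocyte RNA per fragment cannot be told apart in such bulk samples. Nor can either be told from expression of these genes by the captured neurons or by other glia, which was not tested.

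Astrocytes clear glutamate from the synaptic cleft through the transporters encoded by Slc1a3 and Slc1a2 and convert it to glutamine with the synthetase encoded by Glul. Their fine processes wrap neuronal cell bodies and synapses, and they are joined to each other by gap junctions built of connexins. After a stroke, astrocytes near the lesion become reactive, a state classically marked by more Gfap. S100b is also made by some oligodendrocytes, and Slc1a2 transcripts occur in some neurons, so these genes mark astrocytes with differing strictness.

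The captured material held neuronal RNA. Rbfox3, the nuclear neuronal antigen, Snap25 of the synaptic release machinery and Syt1, the vesicle calcium sensor, lay well above background in 40 of 40 channels. Map2 of dendrites did so in 39, the kinase gene Camk2a in 35, and Slc17a7, the vesicular glutamate transporter of cortical projection neurons, in 25. Between 40.5% and 94.6% of all probes lay well above background per channel of an array, and median signals ran from 98.7 to 344.7 units. The number of arrays and animals limits the precision. The ratios of the paired arrays correlated across genes with r from 0.33 to 0.73 in 9 animals and with r = -0.36 in day 21 replicate 4. In that animal ratios had an SD over genes of 0.065, against 0.155 to 0.239 in the others. The direction that the labels give for its arrays was kept, and the labels do not settle whether a dye or a sample label is wrong there. Without day 21 replicate 4 the median ratio of the 9 genes at day 21 was -0.24, that of Gjb6 -0.33 and that of Gja1 -0.29, and the median of the 9 differences between days was -0.22, against -0.20, -0.25, -0.22 and -0.16 with it. None of the 9 genes passed an adjusted p of 0.05 with or without it. Nothing in the labels says more of the animals, and p-values measure the spread between these 5 animals per day.

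The neuron samples also held RNA of the astrocyte genes in every animal. Which cells it came from was not tested. Of the 9 genes, 7 lay well above background in 40 of 40 channels, while Gfap did so in 38 and Aqp4 in 34. The spot signal of Slc1a3 was a median of 241.7 times its local background over the channels, with a range of 70.9 to 971.6. For Glul the median was 236.6 times, and for Gja1 153.6 times. Aldoc, which encodes the aldolase isoform of brain glycolysis, lay at 85.9 times, Gjb6 at 48.6, Slc1a2 at 20.3 and S100b at 12.8 times background. Gfap, the intermediate filament of astrocytes, lay at 3.59 times and Aqp4, the water channel of astrocyte endfeet, at 4.03 times. Among the probes that stand for the 9 genes, the dimmest were thus those of the filament and the water channel. The second Gja1 probe was dimmer still, at 3.36 times. No channel of any of the 14 probes was saturated or marked as an outlier. Each figure is a probe's own signal over its own background, and probes differ in binding strength, so it gives no order of transcript abundance.

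The promoters of 4 of the genes are shown because these genes carry the results below. S100b had the lowest estimate between the days in sprouting neurons, Slc1a3 and Gja1 had ratios that went together over the animals, and Aldoc had the smallest p of the 9 for the difference in ratio. Each window holds 300 bases around a transcript start, most of them upstream (RefSeq, GRCr8), printed 5′ to 3′ on the gene's strand, which is chr20:12381032-12381331 on the minus strand for S100b. It is chr2:59557759-59558058 on the minus strand for Slc1a3, chr20:36302314-36302613 on the plus strand for Gja1, and chr10:63715294-63715593 on the plus strand for Aldoc. Capitals mark a match to TTGGCA, a half-site of the NFI family of transcription factors, on either strand.
S100b: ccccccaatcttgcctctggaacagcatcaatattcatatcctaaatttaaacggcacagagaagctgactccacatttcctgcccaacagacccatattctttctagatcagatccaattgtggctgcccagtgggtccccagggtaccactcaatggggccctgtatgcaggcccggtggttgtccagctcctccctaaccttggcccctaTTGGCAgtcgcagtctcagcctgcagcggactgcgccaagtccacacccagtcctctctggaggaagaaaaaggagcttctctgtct
Slc1a3: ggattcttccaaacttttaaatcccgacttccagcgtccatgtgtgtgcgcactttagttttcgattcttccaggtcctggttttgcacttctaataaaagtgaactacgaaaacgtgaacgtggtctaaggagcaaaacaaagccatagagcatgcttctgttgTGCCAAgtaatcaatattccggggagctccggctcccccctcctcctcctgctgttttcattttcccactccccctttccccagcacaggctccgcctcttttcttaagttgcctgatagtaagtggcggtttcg
Gja1: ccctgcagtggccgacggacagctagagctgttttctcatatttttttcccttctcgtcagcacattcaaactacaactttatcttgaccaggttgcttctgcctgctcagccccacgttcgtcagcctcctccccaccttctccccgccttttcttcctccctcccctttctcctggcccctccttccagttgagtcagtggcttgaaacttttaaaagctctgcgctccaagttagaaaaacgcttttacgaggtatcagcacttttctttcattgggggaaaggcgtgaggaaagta
Aldoc: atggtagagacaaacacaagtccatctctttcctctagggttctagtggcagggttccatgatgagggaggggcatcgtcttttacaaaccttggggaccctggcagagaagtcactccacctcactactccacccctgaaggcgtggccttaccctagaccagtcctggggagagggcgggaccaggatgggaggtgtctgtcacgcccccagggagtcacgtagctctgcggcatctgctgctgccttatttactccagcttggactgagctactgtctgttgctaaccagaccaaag
The 3 motifs were searched on both strands in the 15 windows that RefSeq lists for the 9 genes, of which the 3 of Slc1a3 overlap each other. TTGGCA was found in 6 of the 15 windows, beside 4678 of all 33469 windows. The 6 include the 3 overlapping windows of Slc1a3, and the others belong to Gjb6, S100b and Glul, so that 4 genes had a match. TTCNNNGAA, the palindrome of STAT factors, was in none of the 15 and in 8.87% of all windows, and AACAAT, a core of SOX factors, was in none and in 11.7%. Each of the 4 printed windows can be read for its capitals, of which Gja1 and Aldoc have none. A match is a string of letters in a window, not a measured binding site.

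At day 21 most of the astrocyte genes lay lower in sprouting than in non-sprouting neurons of the same animal, by small amounts that did not pass the test. The log2 ratio was below 0 in 8 of the 9 genes, where 51.0% of all genes tested had an estimate below 0, and its median was -0.20, against -0.0014 over all genes. None of the 9 passed at an adjusted p under 0.05 by limma, and 0.00% of all genes did. At an unadjusted p under 0.05, 3 genes lay lower, Aldoc, Slc1a3 and Gjb6, where 2.38% of all genes did. Ratios were below 0 in at least 4 of 5 animals in 5 genes, Aqp4, Aldoc, Slc1a2, Slc1a3 and S100b, beside 21.1% of all genes. The count of 3 was 0 without day 21 replicate 2, 3 or 5, and 5 without day 7 replicate 5. With the scanner software's processed signals, or with a median shift per array instead of the loess curve, 0 genes lay lower at that threshold.

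The glutamate transporters and the synthetase stood as follows at day 21. Slc1a2 had ratios of -0.13, -0.56, -0.048, -0.039 and -0.34 in the 5 animals, below 0 in each, with a mean of -0.22 ± 0.22 (SD, n = 5). The limma estimate had a 95% interval of -0.47 to 0.024 (adjusted p = 0.837). Slc1a3 had ratios of -0.22, -0.17, -0.33, 0.039 and -0.36, with a mean of -0.21 ± 0.16 (SD, n = 5) and an adjusted p of 0.837 by limma. Its single value above 0 was that of day 21 replicate 4, the animal whose arrays disagreed. The second Slc1a3 probe lay below 0 in 5 of 5 animals, at -0.31 ± 0.25 (SD, n = 5), and followed the first over the 10 animals (r = 0.71). The second Slc1a2 probe, described as a splice variant, gave -0.051 ± 0.081 (SD, n = 5) and did not follow the first (r = -0.021 over 10 animals). Glul ran in both directions, with 0.059, 0.45, -0.70, -0.0071 and -0.48, and its mean was -0.14 ± 0.45 (SD, n = 5). Its other probes gave -0.056 ± 0.64 and -0.18 ± 0.22, and only the first of these followed the brightest probe over the 10 animals (r = 0.84, against 0.15 for the second).

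The connexin genes had the lowest values in day 21 replicate 5. Gjb6 had ratios of 0.011, -0.46, -0.19, 0.048 and -0.67 and a mean of -0.25 ± 0.31 (SD, n = 5), with an adjusted p of 0.837 by limma. Gja1 had -0.12, 0.015, -0.40, 0.071 and -0.66, a mean of -0.22 ± 0.31 (SD, n = 5) and an adjusted p of 0.884 by limma. Both genes thus split, with 3 animals below 0 and 2 above. The second Gja1 probe, well above background in only 16 of 40 channels, lay at -0.018 ± 0.071 (SD, n = 5).

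Of the remaining genes, Aldoc had ratios of 0.0071, -0.38, -0.22, -0.045 and -0.36 at day 21, with a mean of -0.20 ± 0.18 (SD, n = 5). Its 95% interval ran from -0.37 to -0.025, and the adjusted p was 0.837 by limma. S100b, a calcium-binding protein of glia, had -0.076, -0.41, -0.22, 0.0069 and -0.16, with a mean of -0.17 ± 0.16 (SD, n = 5). Aqp4 stayed close to 0, at -0.0015, -0.11, -0.089, -0.048 and 0.022. Gfap was the only one of the 9 with a mean above 0, at 0.11, 0.11, 0.050, -0.032 and 0.41, with a mean of 0.13 ± 0.17 (SD, n = 5) and a limma interval of -0.19 to 0.45. The probe that only describes Gfap had a mean of 0.020 ± 0.097 (SD, n = 5). An exact sign-flip test over 5 animals cannot give a two-sided p under 0.0625, which Slc1a2 reached, and the other 8 genes had exact p-values of 0.125 to 0.562.

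At day 7 the astrocyte genes showed no common direction. Ratios were below 0 in 4 of 9 genes, beside 53.5% of all genes, with a median of 0.012 against -0.0054 over all genes. None passed at an adjusted p under 0.05, where 0.00302% of all genes did. At an unadjusted p under 0.05 by limma, 0 of the 9 lay higher and 0 lower, where 9.48% of all genes differed in either direction. Ratios were below 0 in at least 4 of 5 animals for 2 genes, Slc1a2 and Slc1a3, beside 24.1% of all genes. Day 7 replicate 5 stood apart, with 8 of 9 genes higher in sprouting neurons and a median of 0.49, against medians of -0.18 to 0.058 in the other 4 animals. Without it the median over the genes was -0.11, and 7 of the 9 lay below 0.

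The single values show the weight of that animal. Gfap had day 7 ratios of -0.36, 0.22, -0.084, 0.21 and 0.93 (mean 0.18 ± 0.48, SD, n = 5), and S100b had -0.21, -0.096, 0.023, 0.27 and 0.93 (0.18 ± 0.45, SD, n = 5). In both the last value is the highest by more than 0.6. Without that animal the estimate was -0.0054 for Gfap and -0.0032 for S100b. Slc1a2 had -0.29, -0.0029, -0.23, -0.094 and 0.52, and Aqp4 had -0.52, 0.084, -0.050, 0.058 and 0.49. Slc1a3 had -0.0030, -0.41, -0.18, -0.022 and 0.34, and Gja1 had 0.20, -0.54, -0.47, -0.27 and 0.49. In these genes too the animal was the highest. Aldoc had -0.083, 0.12, -0.030, 0.12 and 0.44 (0.11 ± 0.20, SD, n = 5). Glul, at 0.67, 0.0073, -0.48, 0.42 and 0.36, and Gjb6, at 0.068, -0.19, -0.45, 0.045 and -0.12, peaked in day 7 replicate 1. The second Slc1a2 probe differed from the first, at 0.26 ± 0.36 (SD, n = 5), and a Glul probe lay above 0 in 5 of 5 animals, at 0.40 ± 0.18 (SD, n = 5). In a fit of all probes their adjusted p-values were 0.494 and 0.527 by limma.

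**Figure D1:**
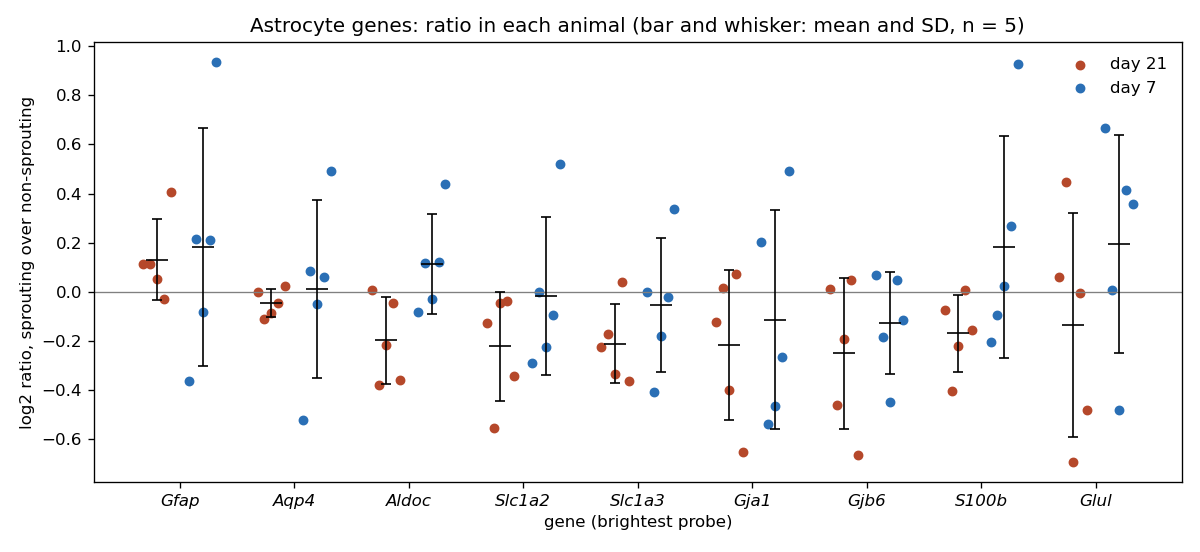
Log2 ratio of sprouting over non-sprouting neurons in each animal (points) for the brightest probe of the 9 genes, with the mean and SD of 5 animals (bar and whisker), day 21 in red and day 7 in blue. At day 21 the points of Slc1a2 all lie below 0, and at day 7 the highest points of Gfap and S100b, both at 0.93, are of the same animal.

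Over both days together, 6 of the 9 genes had a mean ratio below 0, beside 53.1% of all genes, and the median was -0.043, against -0.0034 over all genes. None passed the correction by limma, as for 0.00% of all genes, and 1 of the 9 lay lower at an unadjusted p under 0.05, beside 5.41% of all genes. That gene was Gjb6, at -0.19 (95% interval -0.36 to -0.024, adjusted p = 0.425 by limma), with an exact sign-flip p of 0.0391 over the 10 animals. The count was 4 without day 7 replicate 5, 2 without day 21 replicate 4, and 0 without day 21 replicate 2 or 5 or day 7 replicate 2 or 3. Slc1a3 lay at -0.13 (interval -0.28 to 0.0095) and Gja1 at -0.17 (interval -0.41 to 0.073). Gfap was the highest of the 9, at 0.16 (interval -0.071 to 0.38).

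The ratio was lower at day 21 than at day 7 in the estimates of all 9 genes, beside 47.5% of all genes, and none of the 9 differences passed the test. All 14 probes also had estimates below 0. They include the 9 probes that stand for the genes, so this is not a separate result, and no share of all probes stands beside it. With a median shift per array instead of loess, Slc1a3, Gja1 and Gjb6 lay above 0, and with the processed signals Gfap did. The median of the 9 differences was -0.16, against 0.0045 over all genes, and 0.00% of all genes passed at an adjusted p under 0.05 by limma. Aldoc had a difference of -0.31 (95% interval -0.56 to -0.066, adjusted p = 0.940 by limma) and was the only one of the 9 at an unadjusted p under 0.05, beside 1.73% of all genes. Its exact permutation p over the 10 animals was 0.0397. Without day 7 replicate 1 the count was 2. S100b differed by -0.35 (interval -0.78 to 0.072), Glul by -0.33 (interval -0.89 to 0.23) and Slc1a2 by -0.20 (interval -0.55 to 0.14). Slc1a3, Gjb6 and Gja1 differed by -0.16, -0.12 and -0.10, and Aqp4 and Gfap by -0.058 and -0.053. Without day 7 replicate 5, 6 of the 9 lay below 0 and the median was -0.070. Arrays were scanned on 5 days, and 3 scan days held animals of both cohorts. Within them the median difference was 0.12 on scan day 3, where 1 of 9 genes lay below 0, -0.69 on scan day 4, where 9 did, and -0.39 on scan day 5, where 8 did. Scan days 3 and 4 each set 2 day 21 animals against 1 day 7 animal, and scan day 5 set 1 against 1. The day 7 animal on scan day 3, replicate 3, was placed there by its first array, and its second was scanned on scan day 4. The day 7 animal set against day 21 on scan day 4 was replicate 5, the animal that stood apart in the day 7 ratios.

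Levels give the other view of the same signals. The doubt about the labels of day 21 replicate 4 holds for its levels in both cell types too. In sprouting neurons 8 of the 9 genes had lower estimates at day 21 than at day 7, with a median of -0.43, against -0.047 over all genes, of which 57.9% had an estimate below 0. At an unadjusted p under 0.05 by limma 6 lay lower, Aldoc, Slc1a2, Slc1a3, Gjb6, S100b and Glul, where 6.35% of all genes did. That count was 2 with the processed signals and 3 with scan day as a block, and the median was -0.81 with channels centred on the median, which put all genes at -0.12. None passed at an adjusted p under 0.05, as for 0.00% of all genes. In non-sprouting neurons 8 of 9 also lay below 0, beside 58.4% of all genes, with a median of -0.23 against -0.045 over all genes. There 0 lay lower at an unadjusted p under 0.05, where 6.54% of all genes did, and 0.00% of all genes passed the correction. That count was 1 without day 21 replicate 1 and 2 without day 21 replicate 3 or without day 7 replicate 5, and it was 4 with channels centred on the median, where the median of the 9 was -0.56 and that of all genes -0.12. A count in one cell type and another in the second do not show that the cell types differed, and the difference itself is the change of the ratio above. Both cell types of an animal share its arrays.

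S100b had the lowest estimate. In sprouting neurons its level was 8.29, 8.09, 8.52, 8.41 and 8.02 at day 21, against 8.72, 9.21, 8.82, 9.19 and 9.07 at day 7. The days did not overlap, which held for 1 of the 9 genes, beside 1.24% of all genes. The means were 8.27 ± 0.21 at day 21 and 9.0 ± 0.22 at day 7 (SD, n = 5 each), a limma estimate of -0.74 (95% interval -1.05 to -0.42, adjusted p = 0.355), or 1.67-fold lower. The exact permutation p was 0.00794, the smallest that 5 against 5 animals can give. In non-sprouting neurons S100b lay at 8.37, 8.50, 8.74, 8.40 and 8.17 at day 21, against 8.92, 9.30, 8.80, 8.93 and 8.14 at day 7. There 4 of the day 7 values lay above every day 21 value and that of day 7 replicate 5 lay below all of them, and 0 of the 9 genes had days that did not overlap, beside 1.26% of all genes. Within the 3 shared scan days the difference in sprouting neurons was -0.47, -0.76 and -1.18, and in non-sprouting neurons -0.42, 0.48 and -0.76.

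Glul had a level of 12.63, 12.92, 13.36, 12.53 and 12.41 in sprouting neurons at day 21, against 13.62, 13.98, 12.75, 13.56 and 13.32 at day 7. The day 7 values of replicates 3 and 5 lay below the highest of day 21, that of replicate 3, and the estimate was -0.68 (interval -1.21 to -0.15, adjusted p = 0.534 by limma). Its second brightest probe gave -0.88 and its dimmest -0.085, so that the probes disagreed in size. In non-sprouting neurons Glul averaged 12.91 ± 0.66 at day 21 and 13.26 ± 0.42 at day 7 (SD, n = 5 each). There the estimates were -0.35 for the brightest probe, -0.43 for the second brightest and 0.21 for the dimmest. In those cells the probes thus disagreed in direction. Within the shared scan days the sprouting difference was -0.17, -0.19 and -1.15.

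The transporters had smaller estimates. Slc1a3 had 13.44, 13.05, 13.03, 13.24 and 13.25 in sprouting neurons at day 21, against 13.53, 13.34, 13.60, 13.51 and 13.92 at day 7. A single pair of values crossed, 13.44 of day 21 and 13.34 of day 7, and the estimate was -0.38 (interval -0.67 to -0.089, adjusted p = 0.525 by limma), with its second probe at -0.61. In non-sprouting neurons Slc1a3 averaged 13.41 ± 0.22 at day 21 and 13.64 ± 0.12 at day 7 (SD, n = 5 each). Slc1a2 had 9.41, 8.85, 9.16, 9.60 and 8.96 in sprouting neurons at day 21, against 9.61, 9.57, 9.59, 9.51 and 9.91 at day 7. Day 21 replicate 4, the animal whose arrays disagreed, gave 9.60, the one value of its day inside the day 7 range. The estimate was -0.45 (interval -0.79 to -0.10, adjusted p = 0.528 by limma), and -0.55 without that animal. In non-sprouting neurons Slc1a2 averaged 9.42 ± 0.17 at day 21 and 9.66 ± 0.21 at day 7 (SD, n = 5 each).

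Aldoc had 12.24, 11.48, 11.60, 11.91 and 11.91 in sprouting neurons at day 21, against 12.46, 12.62, 12.07, 12.04 and 12.10 at day 7. Only the 12.24 of day 21 replicate 1 reached the day 7 range, and the estimate was -0.43 (interval -0.81 to -0.048, adjusted p = 0.558 by limma). In non-sprouting neurons Aldoc averaged 12.03 ± 0.21 at day 21 and 12.15 ± 0.38 at day 7 (SD, n = 5 each). Among the connexins, Gja1 averaged 12.36 ± 0.38 at day 21 and 12.80 ± 0.32 at day 7 in sprouting neurons (SD, n = 5 each). Gjb6 averaged 10.55 ± 0.29 at day 21 and 10.90 ± 0.19 at day 7 in the same cells. Their estimates were -0.44 (interval -0.90 to 0.017) and -0.35 (interval -0.70 to -0.0084). In non-sprouting neurons Gja1 averaged 12.58 ± 0.42 at day 21 and 12.92 ± 0.16 at day 7, and Gjb6 10.80 ± 0.070 and 11.03 ± 0.28 on those days (SD, n = 5 each).

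Gfap and Aqp4 had the dimmest signals. Gfap averaged 6.58 ± 0.13 at day 21 and 6.79 ± 0.44 at day 7 in sprouting neurons, and 6.45 ± 0.21 at day 21 and 6.61 ± 0.58 at day 7 in non-sprouting neurons (SD, n = 5 each). Day 7 spread over more than 1 log2 unit in each cell type. Aqp4 was the only gene with a higher mean at day 21, at 7.76 ± 0.91, against 7.21 ± 0.63 at day 7 in sprouting neurons. In non-sprouting neurons it averaged 7.81 ± 0.87 at day 21 and 7.20 ± 0.52 at day 7 (SD, n = 5 each). Day 21 replicate 1 was highest in both cell types, at 9.14, and without it the estimates were 0.20 and 0.27, in place of 0.54 and 0.60. The adjusted p-values with all animals were 0.631 and 0.596 by limma.

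**Figure D2:**
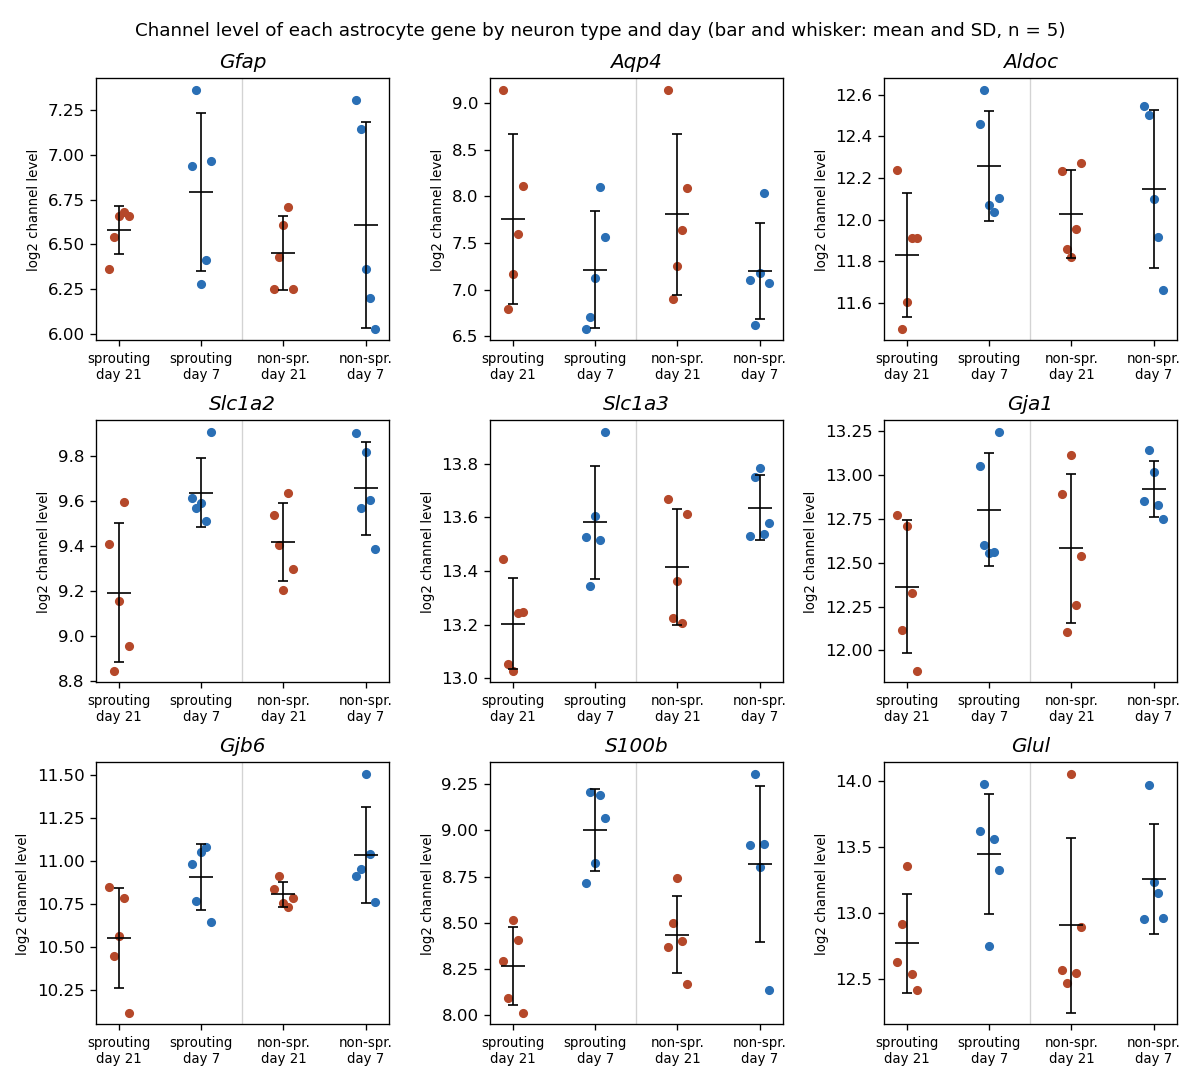
Log2 channel level of each gene's brightest probe in each animal (points), with the mean and SD of 5 animals (bar and whisker), for sprouting neurons (left of the line) and non-sprouting neurons, day 21 in red and day 7 in blue. Vertical axes differ between panels. S100b in sprouting neurons, 8.02 to 8.52 at day 21 and 8.72 to 9.21 at day 7, is the panel in which the days do not overlap.

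The order of the 4 group means was alike in most of the genes. Sprouting neurons of day 21 held the lowest mean in Aldoc, Slc1a2, Slc1a3, Gja1, Gjb6, S100b and Glul, followed by non-sprouting neurons of day 21, and in these 7 genes both day 7 means were higher. Non-sprouting neurons of day 7 had the highest mean in Slc1a2, Slc1a3, Gja1 and Gjb6, and sprouting neurons of day 7 in Aldoc, S100b, Glul and Gfap. Of the 27 pairs of neighbouring means in these orders, 26 lay closer than the larger of their SDs. The exception was Slc1a2, at 9.64 ± 0.15 in sprouting neurons of day 7 and 9.42 ± 0.17 in non-sprouting neurons of day 21 (SD, n = 5 each). These SDs are the spread between animals, not the error of a mean. They also ignore that both cell types of a day share animals and arrays, so the count does not test the orders. Averaged as linear signal, the 9 genes together lay at log2 11.44 to 11.83 in sprouting neurons of day 21, against 11.85 to 12.23 in those of day 7. In non-sprouting neurons the ranges overlapped, at 11.53 to 12.22 for day 21 and 11.85 to 12.39 for day 7. The brightest probes weigh most in such an average, and in sprouting neurons the nearest values of the days were 11.831 and 11.850. A list of the neuronal side of the glutamate cycle, which also holds Glul, had separate ranges there too. They were 11.028 to 11.145 at day 21 and 11.226 to 11.446 at day 7. All genes lay at 9.87 to 9.92 and 9.86 to 9.92 in those cells.

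**Figure D3:**
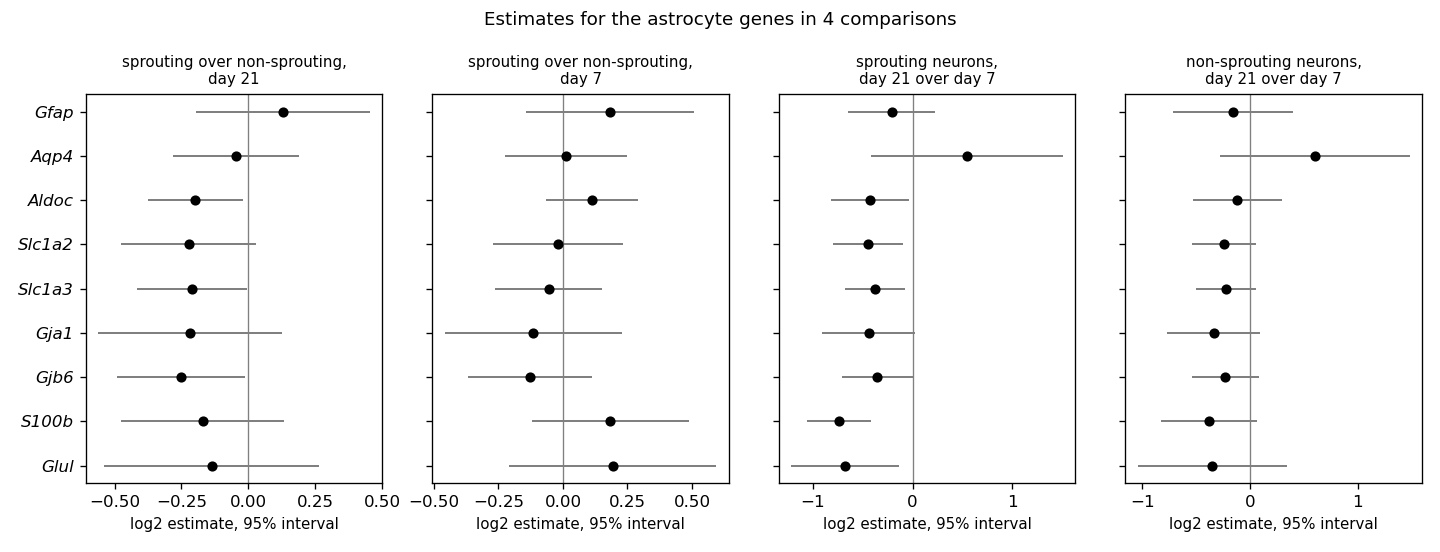
Limma estimate (point) and 95% interval (line) on the log2 scale for the 9 genes in 4 comparisons. Horizontal scales differ between panels. All intervals of the sprouting over non-sprouting comparison at day 7 include 0, and S100b, at -0.74, lies farthest below 0 in the comparison of sprouting neurons between days.

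The ratios of the 9 genes were compared with each other over the 10 animals, as a description of values that share arrays. Of 36 pairs, 33 had a Pearson r above 0, with a median r of 0.50, which was 0.21 without day 7 replicate 5. Gfap and Aqp4 had r = 0.93 (0.84 without that animal), Slc1a3 and Gja1 r = 0.88 (0.79 without it), and Aldoc and Slc1a2 r = 0.88 (0.74 without it). S100b had r = 0.87 with Aldoc and r = 0.87 with Slc1a2 (0.75 and 0.60 without it). Gjb6 and Gfap, at r = -0.21, were the least alike, followed by Aqp4 and Glul at r = -0.12. Without day 7 replicate 5 the least alike were Gfap and Gja1, at r = -0.69 in place of 0.19. Aqp4 and Gja1 then had r = -0.66 in place of 0.11. Against the median of the other 8 genes, Aldoc had the highest r, at 0.88, and Glul the lowest, at 0.39.

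**Figure D4:**
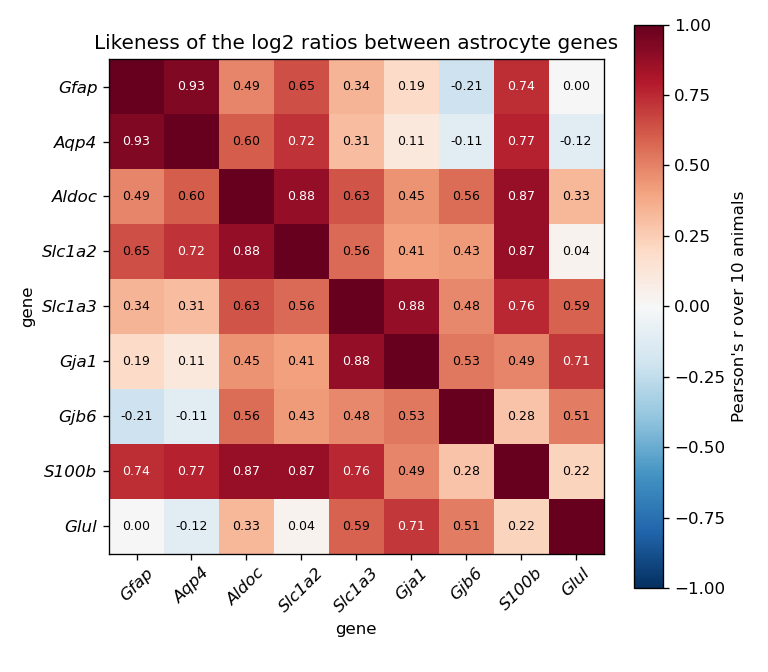
Pearson's r between the log2 ratios of each pair of the 9 genes over 10 animals (colour and printed value). Gfap and Aqp4 share r = 0.93, and Slc1a3, Gja1 and Glul form a block with r from 0.59 to 0.88.

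Other genes were ranked by how like their ratio was to the median of the 9 over the 10 animals, among 14453 genes with a symbol measured in all animals. Among the most alike were Cnn3, a calponin (r = 0.97), Oas1a of the interferon response (r = 0.96), Omd (r = 0.96), Gsta1, a glutathione transferase (r = 0.95), and Tgfa, a growth factor (r = 0.94). Usp18, Adora1, Ecm2 and Vamp3 followed with r from 0.92 to 0.94. Without day 7 replicate 5 and day 21 replicate 5, the 2 animals farthest from the median, the named genes had r from 0.69 to 0.88.

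Other astrocyte genes were counted from lists of known genes. At day 21, 19 of 24 transporter, channel and metabolic genes lay lower in sprouting neurons, with a median of -0.049, and none passed the correction. Among them Atp1b2, a sodium pump subunit, had a ratio of -0.33 ± 0.24, below 0 in 5 of 5 animals, and Slc38a3, a glutamine transporter, -0.072 ± 0.069, below 0 in 4 of 5 (SD, n = 5 each). At day 7 the list had 15 of 24 lower, with a median of -0.030 and a range of -0.23 to 0.46. The lowest was Slc7a10, an amino acid transporter, at -0.23 ± 0.24 (SD, n = 5), below 0 in 3 of 5 animals. At an unadjusted p under 0.05 by limma, 1 gene of the list lay higher and 1 lower at day 7, where 9.48% of all genes differed in either direction. Of 22 secreted and signalling genes, 17 lay lower at day 21 (median -0.073) and 9 at day 7 (median 0.0085). Sparcl1, a matrix protein, lay at -0.17 ± 0.11 and the protease Htra1 at -0.22 ± 0.27 at day 21, while Apoe, the lipid carrier, had -0.23 ± 0.30 (SD, n = 5 each). Of 13 transcription factors of astrocytes, 11 lay lower at day 21 (median -0.0070) and 9 at day 7 (median -0.0054), with Sox9 at 0.029 ± 0.087 on day 21 and 0.067 ± 0.050 on day 7 (SD, n = 5 each). Lhx2, a LIM-homeobox factor, lay at -0.0070 ± 0.23 on day 21 and -0.47 ± 0.19 on day 7, below 0 in 3 of 5 and 5 of 5 animals (SD, n = 5 each), with an adjusted p of 0.278 at day 7 and of 0.940 for the difference by limma. These counts stand beside the 51.0% and 53.5% of all genes below 0.

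Genes of reactive astrocytes were split in direction. Of 26 tested, 12 lay lower in sprouting neurons at day 21 (median 0.0077) and 13 at day 7 (median -0.0016). At an unadjusted p under 0.05 by limma, 4 lay higher and 1 lower at day 7, where 9.48% of all genes differed in either direction. Cxcl10 had the highest day 7 ratio of the list, at 0.68 ± 0.88 (SD, n = 5), above 0 in 3 of 5 animals. Its probe was well above background in 18 of 40 channels. S100a10, an annexin partner, lay at 0.20 ± 0.14 at day 21 and 0.30 ± 0.28 at day 7, and Emp1 at -0.44 ± 0.42 at day 21 and -0.26 ± 0.58 at day 7 (SD, n = 5 each). Of 16 connexin and pannexin genes, with Gja1 and Gjb6 among them, 11 lay lower at day 21 and 12 at day 7. Panx2 lay at -0.11 ± 0.14 at day 21 and 0.13 ± 0.079 at day 7 (SD, n = 5 each). Of 15 aquaporin and water-channel anchor genes, Aqp4 among them, 11 lay lower on each day, with Agrn, the basal lamina proteoglycan, at -0.13 ± 0.12 and -0.16 ± 0.14 (SD, n = 5 each). The neuronal side of the glutamate cycle, a list that also holds Glul, had 7 of 17 genes lower at day 21 and 8 at day 7. The AMPA receptor subunit gene Gria1 lay above 0 in 5 of 5 animals on both days, at 0.21 ± 0.18 for day 21 and 0.33 ± 0.21 for day 7 (SD, n = 5 each). None of these genes passed the correction.

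Markers of other cells were read in the same samples. Oligodendrocyte markers, the myelin-forming glia, had 12 of 15 genes lower in sprouting neurons at day 21 (median -0.024) and 2 of 15 at day 7 (median 0.29). Their median ratio was 0.46, -0.23, -0.30, 0.0098 and -0.12 in the day 21 animals, against -0.34, 0.20, -0.074, 0.75 and 0.92 in the day 7 animals. The last animal, day 7 replicate 5, was thus highest for both glial types. Averaged as linear signal, these markers lay at log2 9.94 to 11.80 in sprouting neurons of day 21, against 11.30 to 12.42 in those of day 7, and 13 of 15 had a lower estimate, 9 of them at an unadjusted p under 0.05 by limma (median -0.60), beside 57.9% and 6.35% of all genes. In non-sprouting neurons they lay at 10.16 to 11.61 at day 21 and 11.41 to 12.29 at day 7. There 11 of 15 had a lower estimate, 1 of them at an unadjusted p under 0.05 by limma, beside 58.4% and 6.54% of all genes. Mbp of myelin differed by -0.80 between days in sprouting neurons and Ermn by -1.37 (adjusted p = 0.489 and 0.373 by limma). Their part in the astrocyte values was not tested.

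Microglial markers had 13 of 18 genes lower at day 21 (median -0.063) and 7 at day 7 (median 0.019), and their mean level in sprouting neurons ran from 10.20 to 10.45 at day 21 and from 9.96 to 10.95 at day 7. Endothelial and mural markers had 15 of 19 lower at day 21 (median -0.091) and 13 at day 7 (median -0.023), with levels of 7.79 to 8.04 at day 21 and 7.75 to 8.44 at day 7. Neuron markers had 11 of 15 lower at day 21 (median -0.049) and 7 at day 7 (median 0.039). Their levels in sprouting neurons overlapped between days, at 12.84 to 13.10 for day 21 and 12.91 to 13.18 for day 7. Projection neuron markers had 5 of 9 lower at day 21 and 3 at day 7, and interneuron markers 6 of 13 and 7. Between days in sprouting neurons, the share of genes with a lower estimate was 21 of 24 for the astrocyte transporters and 17 of 22 for the secreted genes. It was 9 of 13 for the transcription factors, 18 of 26 for reactive genes and 14 of 18 for microglia. For endothelial and mural cells it was 17 of 19 and for neurons 9 of 15, beside 57.9% of all genes. Non-sprouting neurons had 21 of 24 astrocyte transporters, 16 of 22 secreted genes and 10 of 13 transcription factors lower. They had 17 of 26 reactive, 10 of 18 microglial, 17 of 19 endothelial and mural and 7 of 15 neuron genes lower. Of all genes, 58.4% lay lower there.

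**Figure D5:**
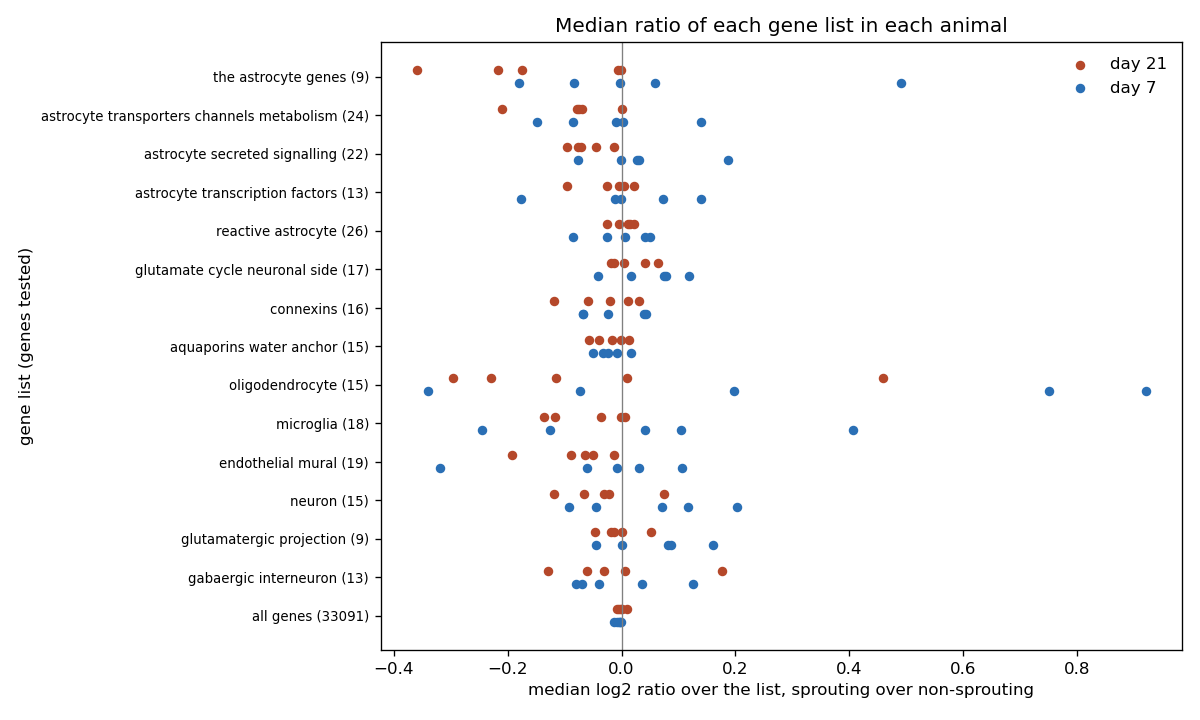
Median log2 ratio of sprouting over non-sprouting neurons over each gene list in each animal (points), day 21 in red above day 7 in blue, with the number of genes tested in brackets. The 9 astrocyte genes reach 0.49 and the oligodendrocyte markers 0.92 in the same day 7 animal, while the medians over all genes stay near 0.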

How the data were processed

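Scanner output of 20 two-colour rat arrays held intensity values per spot, deposited by the authors and made with Agilent Feature Extraction 9.1.3.1 per the file headers. The authors also deposited log2 ratios of Cy5 over Cy3 for the same arrays. Each of these 20 columns correlated best with its own array and served as an alternative. A further 20 columns of average signal were not used.

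Mean signals and local backgrounds were corrected by normexp (offset 50), and ratios were normalized within arrays by loess in limma 3.58.1 (R 4.3.3), with 2256 control spots at weight 0 and outlier spots left out. Every ratio was oriented as sprouting over non-sprouting neurons, spots were averaged per probe, and both dye-swapped arrays were averaged per animal. A probe was kept if its share of arrays well above background reached 0.5 in 1 cell type and day with values from 3 or more animals of each day. The brightest probe stood for a gene. Channel levels were made comparable between arrays by Aquantile normalization.

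A limma fit over all 33091 genes with a mean per day gave moderated estimates, with 95% intervals and Benjamini-Hochberg adjusted p-values at a threshold of 0.05. Exact tests, two-sided, were run on the astrocyte genes. The steps were tested on simulated data. The members and gene lists were chosen with earlier results of these data known. Of each further list, genes were named by the smallest p for the mean of both days and for the difference between days, up to 4 and 2 genes. Likeness was ranked by Pearson's r with the median ratio of the 9 genes. Some genes that these rules name are not reported here. Scan days were taken from the file headers, and 5 were distinguished. Alternatives covered background, normalization, filter, probe summary, scan day, replicate block and omission of each animal, and a fit of all probes was added after seeing the data. Promoters and updated names came from RefSeq tables (GRCr8).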

Additional observations from a re-analysis of the deposited data

Results flagged for a closer look

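Levels of the 9 genes were examined per cell type and day, with the ratios, in 54 groups of 5 animals, and a single animal stood apart from its group in 3 of them. Chance gives about 1 in 20 such groups. The Slc1a2 level of day 7 replicate 5 in sprouting neurons was highest, at 9.91, with a gap to the next animal of 0.744 of the range. The Glul level of day 7 replicate 2 in non-sprouting neurons was highest, at 13.97 (gap 0.727 of the range), and that of day 21 replicate 3 in non-sprouting neurons was highest, at 14.05 (gap 0.730). No cause was tested.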

How the results depend on the processing

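No astrocyte gene passed an adjusted p of 0.05 in any comparison under any alternative that gave one, and Aqp4 had no value under the strict filter on dim probes. Near 0, signs turned. Without background subtraction the day 7 ratio of Aqp4 was -0.00078 and the mean ratio of S100b -0.00089. With processed scanner signals S100b had a mean ratio of -0.0030 and Gfap a difference between days of 0.057. With arrays centred on the median the day 7 ratio was -0.076 for Aldoc and -0.015 for Glul, the mean ratio -0.043 for S100b and -0.089 for Glul, and the difference 0.026 for Slc1a3, 0.068 for Gja1 and 0.0049 for Gjb6. With the mean of all probes Slc1a2 had a day 7 ratio of 0.12. With scan day as a block Gfap had a day 21 ratio of -0.030, S100b a mean ratio of -0.11, Gfap a level difference of 0.022 in sprouting and 0.23 in non-sprouting neurons, and Aldoc one of 0.16 in non-sprouting neurons. The cause was not tested. Genes lower at an unadjusted p under 0.05 numbered 0 at day 21 with processed signals and with median centring. For the mean of both days they numbered 0, 3, 2 and 3 with processed signals, median centring, the mean of all probes and 20 single arrays. For the difference they numbered 0, 0, 3, 2 and 2 with processed signals, median centring, the mean of all probes, scan day and 20 single arrays. In sprouting neurons they numbered 2 with processed signals and 3 with scan day, and in non-sprouting neurons 4 with channels centred on the median. That centring moved the median of all genes to -0.12 in both cell types and that of the 9 to -0.81 in sprouting and -0.56 in non-sprouting neurons. Genes of all tested past the adjusted threshold at day 7 numbered 0 with processed signals, median centring, the mean of all probes and scan day, against 1. A fit of 20 single arrays, with a random block per animal and a dye term, called 403 at day 7, 509 for the mean and 4 for the difference.

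Leaving out 1 animal moved the day 7 ratio between -0.0054 and 0.32 for Gfap, -0.11 and 0.15 for Aqp4, -0.15 and 0.049 for Slc1a2, -0.15 and 0.033 for Slc1a3, and -0.0032 and 0.28 for S100b, with the lowest each time without day 7 replicate 5. The day 21 ratio of Glul ran between -0.28 and 0.0034, above 0 only without day 21 replicate 3. Mean ratios ran between -0.077 and 0.050 for Aqp4, -0.087 and 0.055 for S100b, and -0.044 and 0.11 for Glul. Differences ran between -0.19 and 0.13 for Gfap, -0.19 and 0.062 for Aqp4, and -0.21 and 0.049 for Gja1, and the level difference of Gfap in non-sprouting neurons between -0.30 and 0.016. Counts ran between 0 and 1 for all genes past the adjusted threshold at day 7, 3 and 7 for astrocyte genes below 0 at day 7, and 0 and 1 for those higher at an unadjusted p under 0.05 at day 7 and for the mean. Those lower numbered 0 to 5 at day 21, 0 to 4 for the mean, 1 to 2 for the difference and 0 to 2 in non-sprouting neurons.

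Replicate numbers are shared by the days. Deviations of same-numbered animals correlated at -0.19 to 0.00072 in the ratios, -0.33 to 0.51 in sprouting and -0.30 to 0.56 in non-sprouting levels, over 0.1 for 3 of 5 numbers in each kind of level, and only replicate 5 correlated best with its own number there, so the numbers were not taken as pairing. With the replicate block 0 genes lay lower at an unadjusted p under 0.05 for the difference and 1 in non-sprouting neurons, against 1 and 0 without it. Its other counts and medians over the genes stayed within 1.5 times. Dim signal limits Gfap and Aqp4, at 3.59 and 4.03 times background.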
